A study of Mus musculus with 2 samples.

Results

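The genes described here are those that encode the proteasome and its regulators, taken as every mouse gene whose symbol begins with Psma to Psmg followed by a digit. This rule picked 50 of the 31053 genes in the count tables. The rule set 5 of them, the immunoproteasome genes Psmb8, Psmb9, Psmb10, Psme1 and Psme2, against the other 45. The rule itself uses no level, although the gene family was chosen with earlier results of these data known.

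The study profiled bone marrow cells labelled as haematopoietic stem cells (HSCs) by droplet single-cell RNA sequencing. The Listeria library came from wild-type C57BL/6J mice challenged 6 weeks earlier with Listeria monocytogenes, an intracellular bacterium. The naive library came from untreated wild-type C57BL/6J mice. Mice of both groups were 6 to 8 weeks old, at a point of the experiment that is not stated. The labels call both groups wild type, but the names of the deposited files tag the Listeria library KO and the naive library WT. The labels were followed, and if the tags give a genotype, it cannot be told apart from the challenge. There was 1 library per group, so no difference between them has a replicate check. Such values describe a pair of libraries, not the conditions, and the intervals given cover counting error only. Transcripts were counted by unique molecular identifiers (UMIs), each marking 1 captured molecule.

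Filtering left 4839 Listeria cells, whose median depth was 7239 UMIs, and 6375 naive cells, whose median depth was 6972 UMIs; 14 cell barcodes occurred in both libraries. The HSC label was checked against markers: cells were gated by how many distinct markers of a lineage they showed. At least 6 of 18 HSC markers were found in 33.3% of Listeria cells and 29.1% of naive cells, and a further 11.4% of Listeria cells and 9.18% of naive cells passed the HSC gate and the multipotent progenitor gate together. Cells of other lineages were present in both libraries, among them 389 Listeria cells and 1362 naive cells gated as early B-lineage. Levels below are UMIs per 1000000 UMIs of the same cells (CPM). Since the assay counts 1 tag per captured 3′ transcript end, they were not divided by gene length.

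The proteasome breaks down proteins marked with ubiquitin. Its 20S core is a barrel of alpha rings, which gate the entrance, around beta rings, of which Psmb5, Psmb6 and Psmb7 carry the cutting sites. The 19S cap recognises ubiquitin through its non-ATPase subunits and unfolds the substrate with a ring of ATPases. Cells exposed to interferon, and immune cells at rest, replace the cutting subunits by Psmb8 for Psmb5, Psmb9 for Psmb6 and Psmb10 for Psmb7. This immunoproteasome, often capped by the PA28 activator made of Psme1 and Psme2, favours peptides that fit MHC class I molecules.

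The upstream sequences of 2 such exchange pairs are shown because the exchange is known to rest on different control of the paired genes. Each is the 250 bases before the annotated start, 5′ to 3′ on the gene's own strand, from RefSeq on GRCm38.p6. Capitals mark motif letters found by search on both strands. Psmb8 lies at chr17:34197945-34198194 on the plus strand, where a STAT-type letter pattern, TTCNNNGAA, begins 97 bases before the start. Psmb9 lies at chr17:34187331-34187580 on the minus strand and holds the NF-Y-type pattern CCAAT in reverse, 8 to 4 bases before the start. Psmb5, the counterpart of Psmb8, lies at chr14:54617996-54618245 on the minus strand with the antioxidant-response pattern TGACNNNGC 47 to 39 bases before the start. Psmb6, the counterpart of Psmb9, lies at chr11:70525107-70525356 on the plus strand with the short interferon-factor pattern AANNGAAA in reverse 70 to 63 bases before the start and TGACNNNGC 9 to 1 bases before it.
Psmb8: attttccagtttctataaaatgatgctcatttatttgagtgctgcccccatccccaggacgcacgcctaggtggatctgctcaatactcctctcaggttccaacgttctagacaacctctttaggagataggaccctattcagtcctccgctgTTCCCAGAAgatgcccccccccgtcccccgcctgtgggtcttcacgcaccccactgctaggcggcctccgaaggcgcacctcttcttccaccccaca
Psmb9: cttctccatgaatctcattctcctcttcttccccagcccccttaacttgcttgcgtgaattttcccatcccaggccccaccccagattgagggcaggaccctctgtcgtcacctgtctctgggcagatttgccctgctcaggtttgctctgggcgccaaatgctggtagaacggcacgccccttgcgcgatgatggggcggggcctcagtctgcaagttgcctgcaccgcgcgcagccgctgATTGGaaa
Psmb5: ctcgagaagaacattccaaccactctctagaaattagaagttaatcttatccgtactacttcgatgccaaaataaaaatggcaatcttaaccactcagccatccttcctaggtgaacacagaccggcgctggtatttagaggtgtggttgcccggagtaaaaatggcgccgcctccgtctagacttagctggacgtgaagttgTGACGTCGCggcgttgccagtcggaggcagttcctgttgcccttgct
Psmb6: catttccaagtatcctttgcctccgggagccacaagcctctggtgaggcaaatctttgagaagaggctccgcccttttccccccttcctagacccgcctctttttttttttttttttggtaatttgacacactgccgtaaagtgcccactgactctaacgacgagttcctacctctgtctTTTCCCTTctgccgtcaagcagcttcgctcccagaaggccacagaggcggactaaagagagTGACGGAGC
RefSeq windows were matched for 42 of the 50 genes. In the 250 upstream bases, TTCNNNGAA occurred in 1 of the 5 immunoproteasome genes (Psmb8) and 1 of the 37 others (Psmg1), against 8.13% of 27025 genes. The longer interferon pattern, GAAA then any 2 bases then GAAA, which contains the letters of AANNGAAA, occurred in none of the 5 and in 8.11% of the others (Psmb3, Psmd4 and Psmd9), against 3.46% of all genes. AANNGAAA itself occurred in none of the 5 and 27.0% of the others, against 23.9% of all genes. TGACNNNGC was found in none of the 5 and in 13.5% of the others (Psmb5, Psmb6, Psmc6, Psmd12 and Psmd9), against 11.5% of all genes. CCAAT was found in Psmb9 alone of the 5 and in 37.8% of the others, against 37.5% of all genes. The windows of Psmb9 and of Tap1, the peptide transporter encoded on the opposite strand, shared 275 bases. A match is a match of letters only. Among the immunoproteasome genes, the GENCODE starts of Psmb8, Psmb9 and Psme1 lie further upstream, so their RefSeq windows fall inside those longer genes. Sequence before the GENCODE starts of these genes was not searched.

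The 50 genes differed widely in level. Over all kept cells, Psme1 had 283 CPM in the Listeria library and 279 CPM in the naive library, and Psmb1, a structural beta subunit, had 263 and 276 CPM. Among the genes outside the standard particle, Psmb11, the beta subunit of the thymus proteasome, had 0 UMIs in both libraries. Psme2b, a copy related to Psme2, had 83 UMIs in the Listeria library and 119 UMIs in the naive library. Psma8, an alpha subunit of the testis, had 156 UMIs in the Listeria library and 217 UMIs in the naive library. These 3 genes were under 10 CPM in both libraries and were not tested over all cells. Reads of Psme2 could be shared with Psme2b, and Psma2, Psmd1 and Psmg3 each overlap another annotated gene on the same strand, so these levels are uncertain. Psmc3ip, whose product pairs chromosomes in meiosis and is no proteasome subunit, stood at 10.6 CPM in the Listeria library and 12.7 CPM in the naive library.

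Immunoproteasome genes were highest in dendritic cells, and among the gates this held for each of the 5 in both libraries. For Psmb10 it did not hold among Leiden clusters, which group cells by expression. There the dendritic cell cluster had 119 CPM in the Listeria library and 131 CPM in the naive library. A T and NK cell cluster had 127 CPM in the Listeria library and 158 CPM in the naive library. Summed over the 5, dendritic cells had 1878 CPM (95% Poisson interval 1729 to 2037) in the Listeria library and 1963 CPM (1859.6 to 2069.9) in the naive library. HSC-gated cells had 677 CPM (662 to 693) in the Listeria library and 607 CPM (594 to 621) in the naive library. T and NK cells came next at 1136 CPM and 966 CPM, and early B-lineage cells had 961 CPM in the Listeria library and 955 CPM in the naive library. Neutrophils were lowest, at 331 CPM in the Listeria library and 400 CPM in the naive library. The other 6 gates lay between 585 and 872 CPM, and many neighbours in that order overlapped in their intervals.

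The other 45 genes had a different order. Their summed level was highest in early B-lineage cells, at 5868 CPM in the Listeria library, and in erythroid cells, at 5969.7 CPM in the naive library. Myeloid progenitors had 5816 CPM in the Listeria library and 5335 CPM in the naive library, and erythroid cells of the Listeria library had 5367 CPM. HSC-gated cells had 3849.9 CPM in the Listeria library and 3412 CPM in the naive library. Plasma cells, at 2544 and 1924 CPM, and neutrophils, at 2515 and 2358 CPM, were lowest. Across the 22 points made by 11 gates and 2 libraries, the 2 sums had a Pearson r of 0.48 on the log2 scale. Points of 1 library share its preparation, so r is given as a description.

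**Figure D1:**
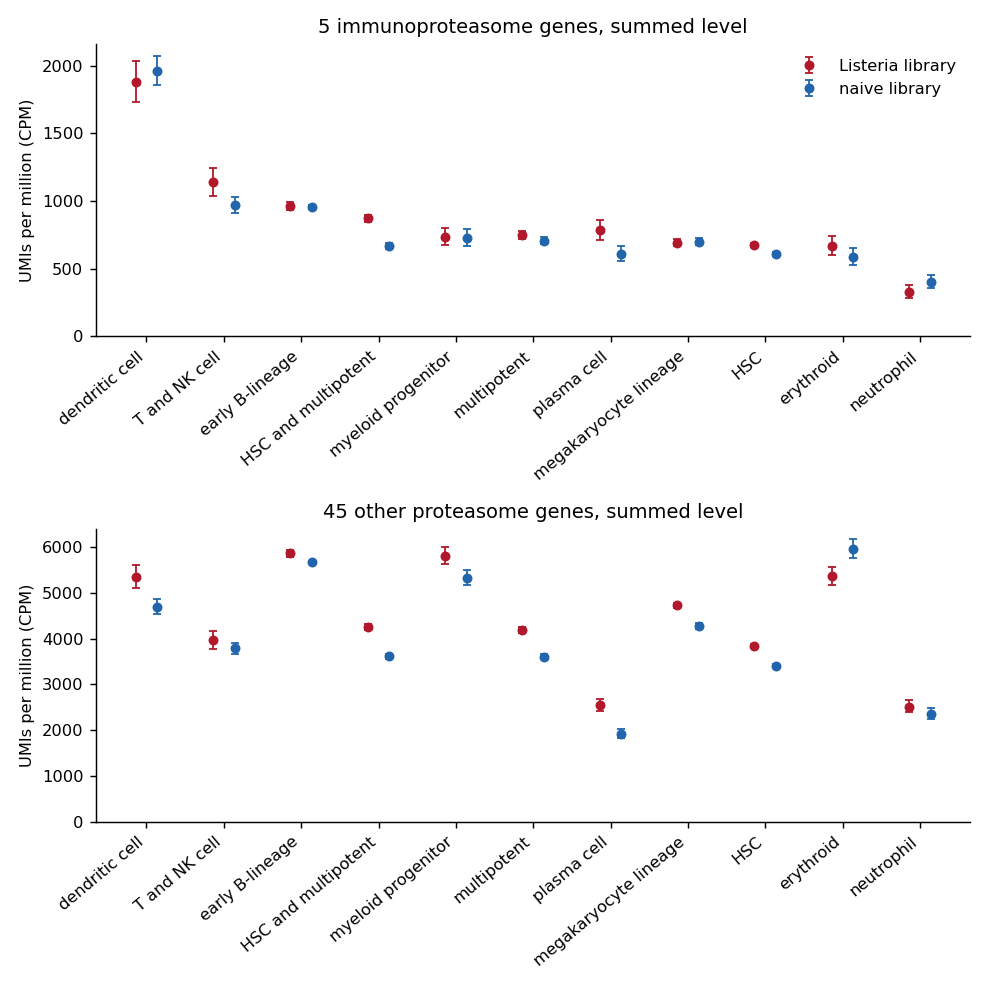
Summed level (CPM, UMIs per 1000000) of the 5 immunoproteasome genes and of the other 45 proteasome genes in each gated cell type, with the Listeria library left of the naive library and exact 95% Poisson intervals. Dendritic cells reach 1878 and 1963 CPM for the immunoproteasome genes, while early B-lineage, erythroid and myeloid progenitor cells are high for the others.

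A gene is called higher where its level was more than 25% above that of the cells it is compared with, and lower where theirs was more than 25% above its own. Genes were tested if they reached 10 CPM on 1 side and 100 UMIs over both sides. In dendritic cells over HSC-gated cells of the same library, 5 of 5 immunoproteasome genes were higher in each library, where 30.6% of all tested genes were higher in the Listeria library and 34.5% in the naive library. Their sum was higher by 1.47 on the log2 scale (1.35 to 1.59) in the Listeria library and by 1.69 (1.61 to 1.78) in the naive library. For the other genes the log2 ratio was 0.48 and 0.46, with 24 of 41 tested members higher in the Listeria library and 22 of 41 in the naive library. In each library 4 of the 41 were lower, against 44.4% and 37.3% of all tested genes. The median over all tested genes was -0.18 in the Listeria library and -0.03 in the naive library.

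Single members in dendritic cells stood as follows. Psmb8 had 618 CPM in dendritic cells against 182 CPM in HSC-gated cells of the Listeria library, and 635 against 164 CPM in the naive library. Psmb9 had 218 against 74.7 CPM in the Listeria library and 268 against 71.4 CPM in the naive library. Psmb10 had 118 against 72.9 CPM in the Listeria library and 129 against 58.1 CPM in the naive library. All 3 exchange subunits were thus higher in dendritic cells, with the smallest log2 ratios, 0.70 and 1.15, for Psmb10. Of the PA28 pair, Psme2 had 259 against 59.9 CPM (log2 ratio 2.11) in the Listeria library and 230 against 48.3 CPM (2.25) in the naive library. Psme1 had 666 against 288 CPM (1.21) and 701 against 265 CPM (1.40). Dendritic cells were gated partly by MHC class II genes, and no proteasome gene was a marker. The gate held 34 Listeria cells and 81 naive cells, of which 17 and 34 stood at the threshold of 6 markers.

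T and NK cells had more immunoproteasome transcripts than HSC-gated cells, with a log2 ratio of 0.75 (0.61 to 0.88) in the Listeria library and 0.67 (0.57 to 0.77) in the naive library. There 5 of 5 members were higher in the Listeria library, where 25.1% of tested genes were, and 3 of 5 in the naive library, where 33.7% were. Psme2 had the largest log2 ratios, 1.44 and 1.49, while Psmb8 had 0.96 and 0.92, and Psmb10 had 0.65 and 1.04. Psmb9 had 102 CPM in T and NK cells of the Listeria library and 74.2 CPM in those of the naive library, and was called higher than in HSC-gated cells in the Listeria library only, a difference that was not tested. The other proteasome genes had log2 ratios of 0.04 and 0.15. Of 41 tested, 7 were higher and 8 lower in the Listeria library, and 10 were higher and 3 lower in the naive library, where 39.6% and 28.3% of all tested genes were lower.

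Early B-lineage cells were high in nearly the whole gene family. The other genes had a log2 ratio of 0.61 over HSC-gated cells in the Listeria library and 0.73 in the naive library, with 35 of 42 tested members higher in the Listeria library and 36 of 42 in the naive library, where 32.4% and 38.2% of all tested genes were higher. Only 2 were lower in the Listeria library and 1 in the naive library, against 39.6% and 35.1% of all tested genes. All 6 ATPases of the 19S ring were higher in both libraries, and their sum had log2 ratios of 0.93 (0.87 to 0.99) and 1.11 (1.06 to 1.16). Among them Psmc3 had 239.8 CPM in B-lineage cells against 121 CPM in HSC-gated cells of the Listeria library, and 221 against 104 CPM in the naive library. Psmb9 had 167 CPM against 74.7 CPM in the Listeria library and 162 against 71.4 CPM in the naive library, while Psme1 stood at 290.3 against 288 CPM and 294 against 265 CPM, not called in either library. The PA28 pair thus did not move as a unit, since Psme2 was higher, at 125 against 59.9 CPM in the Listeria library and 115 against 48.3 CPM in the naive library.

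Myeloid progenitors, erythroid cells and megakaryocyte-lineage cells had more of the other proteasome genes than HSC-gated cells, while the sums of their immunoproteasome genes were within the 25% limit. In myeloid progenitors the other genes had log2 ratios of 0.60 and 0.64, with 28 members higher and 3 lower in each library, against 26.9% and 28% of all genes higher and 52.8% and 53% lower, while the immunoproteasome genes had 0.12 (-0.01 to 0.25) and 0.26 (0.14 to 0.39). In erythroid cells, 28 of 41 other genes were higher in the Listeria library and 35 of 41 in the naive library, against 30% and 36.8% of all genes, and 1 and 0 were lower, against 43.2% and 41.1%, with log2 ratios of 0.48 and 0.81 for the sum. The immunoproteasome genes there had -0.02 (-0.18 to 0.13) and -0.05 (-0.22 to 0.11). The erythroid value depended on cells with many UMIs. Without the 5% of cells with most UMIs in each library, the log2 ratios of the other genes were 0.15 and 0.31. That limit was set on all cells of a library, and erythroid cells were deep, with medians of 12556 and 13660 UMIs. How many erythroid cells it removed was not counted. In megakaryocyte-lineage cells 23 of 42 other genes were higher in the Listeria library and 27 of 42 in the naive library, against 25.9% and 32.9% of all genes, none was lower, against 20.6% and 17.8%, and the sums had 0.30 and 0.33. Their immunoproteasome genes had 0.03 and 0.20.

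Neutrophils and plasma cells had the lowest totals of proteasome transcripts. In both types a few secretory or granule transcripts take up much of the UMI total, and most genes were below their HSC level: 64.9% and 64.5% of all tested genes were lower in neutrophils, and 84.4% and 85.9% in plasma cells. Relative to that, the other proteasome genes had log2 ratios of -0.61 and -0.53 in neutrophils, where the median of all genes was -0.85 and -0.80. There 28 of 41 were lower and 1 higher in the Listeria library, and 27 lower and 3 higher in the naive library, where 19.4% and 20% of all tested genes were higher. In plasma cells they had -0.60 and -0.83, with 31 of 41 lower in the Listeria library and 40 of 41 in the naive library, where the median of all genes was -1.56 and -1.62. Without antibody genes in the totals, these plasma cell ratios were positive, 0.48 and 0.34. Neutrophils had 4 of 5 immunoproteasome genes lower in the Listeria library and 3 of 5 in the naive library. The member with the lowest level was Psmb10, at 8.94 CPM in neutrophils of the Listeria library, which is 5 UMIs, and 26.7 CPM in those of the naive library, which is 19 UMIs.

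In plasma cells the 5 immunoproteasome genes moved apart. Psmb9 was higher than in HSC-gated cells, at 159.6 against 74.7 CPM in the Listeria library and 120.3 against 71.4 CPM in the naive library. Psme2 was higher too, with log2 ratios of 0.80 and 0.84. Psme1 was lower, at 149 against 288 CPM in the Listeria library and 116 against 265 CPM in the naive library. These levels were taken with antibody genes in the totals, where 84.4% and 85.9% of all tested genes were lower. Whether Psme1 was lower without antibody genes in the totals was not tested. In all, 4 of 5 were higher in the Listeria library and 3 of 5 in the naive library, where only 7.03% and 7.2% of all tested genes were higher.

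Shares within the gene family do not depend on the UMI total of a cell. Immunoproteasome genes made up 26.0% (95% Clopper-Pearson interval 24.2 to 27.8) of proteasome UMIs in dendritic cells of the Listeria library and 29.5% (28.2 to 30.8) in those of the naive library. Plasma cells had 23.5% and 24.1%, and T and NK cells 22.3% and 20.3%. HSC-gated cells had 14.96% (14.7 to 15.3) in the Listeria library and 15.1% (14.8 to 15.4) in the naive library. By share, then, plasma cells stood with dendritic, T and NK cells, although their immunoproteasome level in CPM was close to that of HSC-gated cells. Erythroid cells were lowest, with 11.04% in the Listeria library and 8.93% in the naive library, and in the Listeria library their interval overlapped those of myeloid progenitors and neutrophils.

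The exchange pairs followed the same cell types in part. Psmb8 made up 82.5% (77.0 to 87.1) of the UMIs of Psmb8 and Psmb5 in dendritic cells of the Listeria library and 83.3% (79.8 to 86.4) in those of the naive library, against 69.0% and 71.3% in HSC-gated cells. In myeloid progenitors the share was 44.5% (39.2 to 49.8) in the Listeria library and 49.5% (43.9 to 55.1) in the naive library, where Psmb5 reached its highest levels, 274 and 219.6 CPM. Psmb9 made up 50.4% and 60.7% of its pair with Psmb6 in dendritic cells, 58.2% and 59.9% in plasma cells, and 35.3% and 38.3% in HSC-gated cells. Psmb10 had its highest share of the pair with Psmb7 in plasma cells, 64.3% (53.1 to 74.4) in the Listeria library and 73.7% (63.6 to 82.2) in the naive library. There Psmb7 was at its lowest, 53.8 and 30.1 CPM. Genes differ in how well their 3′ ends are captured, so a share is compared here between cell types and not with an even split. In HSC-gated cells, the Psmb10 share was 46.2% (43.9 to 48.6) in the Listeria library and 39.8% (37.6 to 42.1) in the naive library. The intervals of the other pairs overlapped between the libraries.

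**Figure D2:**
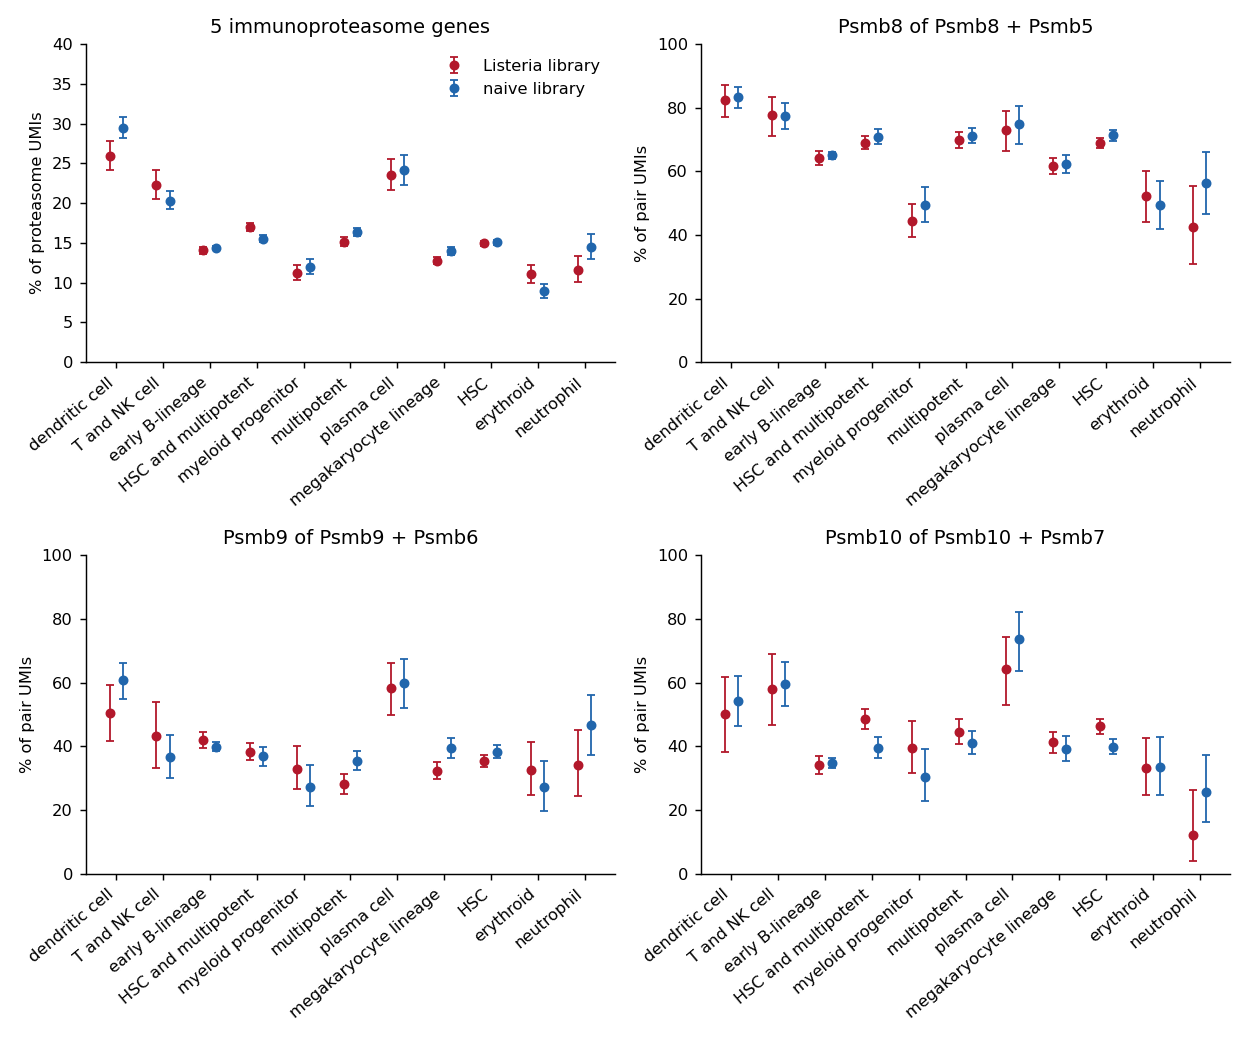
Share (percent) of proteasome UMIs from the 5 immunoproteasome genes, and share of each exchange pair from its immunoproteasome member, by gated cell type, with the Listeria library left of the naive library and 95% Clopper-Pearson intervals. Dendritic, plasma, T and NK cells have the highest shares, from 20.3% to 29.5%, against 14.96% and 15.1% in HSC-gated cells.

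Other members had ranges of their own. Psmd7, a non-ATPase subunit that holds the deubiquitinating subunit Psmd14 in the cap, had 265 CPM in erythroid cells of the Listeria library and 338 CPM in those of the naive library, against 25.02 and 40.7 CPM in neutrophils. Psmd14 itself, which removes ubiquitin from substrates, was also highest in erythroid cells, at 102 and 116 CPM. Psme3, which forms the nuclear PA28-gamma activator, had 100.3 and 114 CPM in erythroid cells against 16.1 and 13.2 CPM in plasma cells. Erythroid cells thus had the highest levels of these 3 genes in each library. Psme4, the PA200 activator, was instead highest among the stem cell gates: it had 82.7 and 72.7 CPM in HSC-gated cells and 73.0 and 85.03 CPM in cells of both the HSC and multipotent gates, against 41.3 and 40.7 CPM in early B-lineage cells. Among alpha subunits, Psma5 had 157 and 175 CPM in erythroid cells against 37.5 and 28.1 CPM in neutrophils. Psma6 was highest in myeloid progenitors, at 250.6 and 262 CPM, and Psma1 lowest in plasma cells, at 44.8 and 26.5 CPM. The ATPase genes Psmc4 and Psmc5 were highest in early B-lineage cells, with 169 and 144 CPM for Psmc4 and 135 and 124 CPM for Psmc5. In myeloid progenitors the structural beta subunit Psmb2 had 239 and 224 CPM, and Psmd13, a lid subunit of the cap, had 144 and 129 CPM. Of the assembly factors, Psmg1 had 54.6 and 33.9 CPM in myeloid progenitors against 3.57 and 7.02 CPM in neutrophils. The neutrophil values were only 2 and 5 UMIs. Psmg3 had 51.8 and 33.9 CPM in myeloid progenitors. In the naive library both genes were highest in erythroid cells, at 48.8 CPM for Psmg1 and 39.7 CPM for Psmg3. Psmf1, an inhibitor of the core, was highest in erythroid cells at 43.5 and 45.1 CPM.

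**Figure D3:**
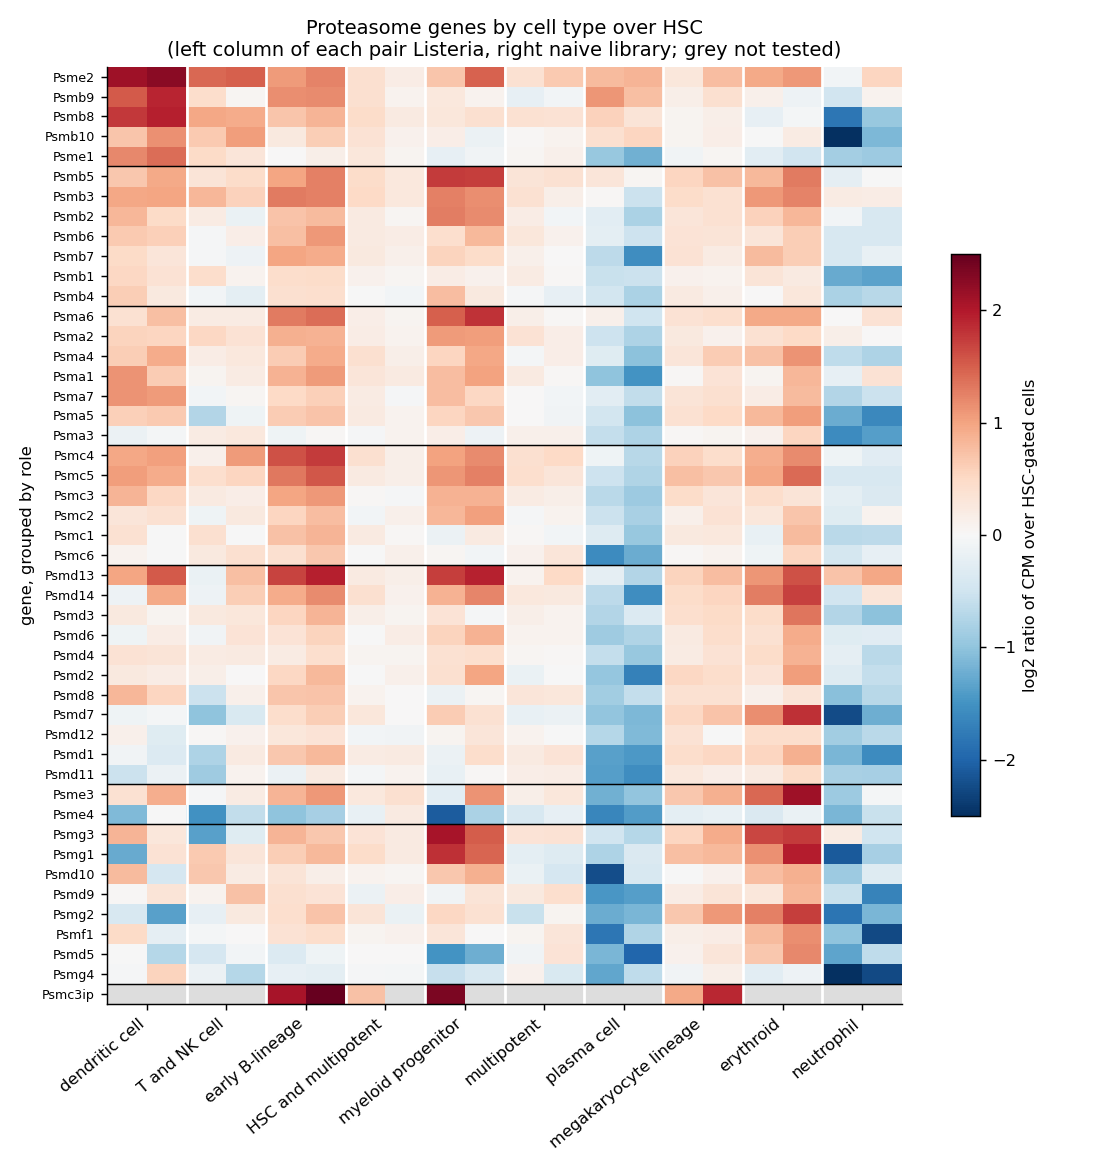
Heat map of each proteasome gene's log2 ratio over HSC-gated cells of the same library, by gated cell type and library (Listeria left of naive), ordered by role, with grey where a gene was not tested. Dendritic cells stand out for the immunoproteasome block and early B-lineage cells for the 19S ATPases, while plasma cells are low for most other members.

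Between the libraries as a whole, few proteasome genes differed. Over all kept cells 2 of 47 tested members were higher in the Listeria library and none was lower, where 15.1% of 8183 tested genes were higher and 8.62% lower. The higher members were the 19S subunits Psmd6, at 101 CPM in the Listeria library and 78.4 CPM in the naive library (log2 ratio 0.37, 0.31 to 0.43), and Psmd11, at 152 and 121 CPM (0.33, 0.28 to 0.38). The next highest log2 ratios, Psmd1 at 0.29 and Psmc6 at 0.29, were not called. The lowest were -0.26 for Psmc3ip, -0.26 for Psmb9 (83.5 CPM in the Listeria library, 100.1 CPM in the naive library), -0.20 for Psmb3 and -0.17 for Psmd13, none of them called. The immunoproteasome genes summed to 721 CPM in the Listeria library and 751 CPM in the naive library, a log2 ratio of -0.06 (-0.08 to -0.04), and the other genes to 4358 and 4187 CPM, a ratio of 0.06 (0.05 to 0.07).

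The kept cells differed in make-up. Apart from leaving out the cluster described below, the part of make-up in these values was not tested. Early B-lineage cells were 8.04% of Listeria cells and 21.4% of naive cells. One Leiden cluster, built without proteasome genes and with Csf2rb among its leading genes, held 943 Listeria cells and 34 naive cells, and its immunoproteasome share was 8.38% in the Listeria library and 8.94% in the naive library, below every gate in the Listeria library. Without it the log2 ratio of the immunoproteasome genes was 0.065 in place of -0.06. The share of immunoproteasome UMIs was 14.2% in the Listeria library and 15.2% in the naive library, a difference of -1.02 percentage points, which was -0.024 without that cluster.

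Within HSC-gated cells more members were called, and they were mostly parts of the 19S cap. There 15 of 46 tested members were higher in the Listeria library and none was lower, where 21.7% of 8102 tested genes were higher and 5.07% lower. By role, 5 of 6 ATPases and 5 of 11 non-ATPase cap subunits were higher, against 1 of 7 alpha subunits (Psma4) and 0 of 7 standard beta subunits. Of the remaining roles, 1 of 5 immunoproteasome genes, 1 of 2 other activators and 2 of 8 assembly factors were higher. The median of all tested genes was 0.12 on this scale. Scaling by edgeR's TMM factors lowered every ratio by 0.10 and by DESeq2's size factors by 0.12, which left 5 of 46 and 4 of 46 members called. Under these scalings 12.8% and 11.6% of all tested genes were higher, so the members' share was then no longer above that of all genes. No member passed 1.5-fold, against 5.12% of all tested genes. Of the 17 cap subunits, 10 were called as given above, 3 under TMM, 2 under DESeq2, 5 with gates set on cells thinned to 2500 UMIs and 3 with Leiden clusters in place of gates. Of all tested genes, 20.6% were higher with thinned gates and 18.5% with clusters.

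Summed by role, the ATPases had a log2 ratio of 0.34 (0.29 to 0.40), the non-ATPase cap subunits 0.26 (0.22 to 0.30), the alpha subunits 0.16 (0.12 to 0.20) and the standard beta subunits 0.03 (-0.01 to 0.06). With thinned gates the ATPase ratio was 0.21. The value of the standard beta subunits turned negative, -0.07 and -0.09, under the TMM and DESeq2 scaling. The highest single members were Psmd6, a cap subunit, at 92.7 CPM in the Listeria library and 64.9 CPM in the naive library (0.51, 0.38 to 0.65), and Psme3 at 37.0 and 26.1 CPM (0.51, 0.30 to 0.72). Psmc6, an ATPase, had 102 CPM in the Listeria library and 74.2 CPM in the naive library (0.46, 0.33 to 0.58). Psmg2, a chaperone that builds alpha rings, had 25.3 and 18.6 CPM (0.44, 0.19 to 0.70). The lowest were Psmg4, Psmd10, Psmb1 and Psmb7, with log2 ratios of -0.10, -0.07, -0.06 and -0.05, none called. For Psmb1 this meant 239 CPM in the Listeria library and 249.9 CPM in the naive library.

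For the immunoproteasome genes of HSC-gated cells, the calls depended on how the gate was drawn. Psmb10 alone was called, at 72.9 CPM in the Listeria library and 58.1 CPM in the naive library (log2 ratio 0.33, 0.18 to 0.47). Psme2 had 59.9 CPM in the Listeria library and 48.3 CPM in the naive library (0.31), Psmb8 182 and 164 CPM (0.14), Psme1 288 and 265 CPM (0.12) and Psmb9 74.7 and 71.4 CPM (0.07). All 5 were above the naive level in the Listeria library, by amounts under the 25% limit for 4 of them. With thinned gates 3 of 5 were called and their median log2 ratio was 0.42, against 0.11 for all tested genes. Without the cluster held mostly by the Listeria library 2 of 5 were called, and none was called under TMM or DESeq2 scaling. The standard counterparts Psmb5, at 81.8 and 66.1 CPM (0.31), and Psmb6, at 137 and 115 CPM (0.25), were not called.

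**Figure D4:**
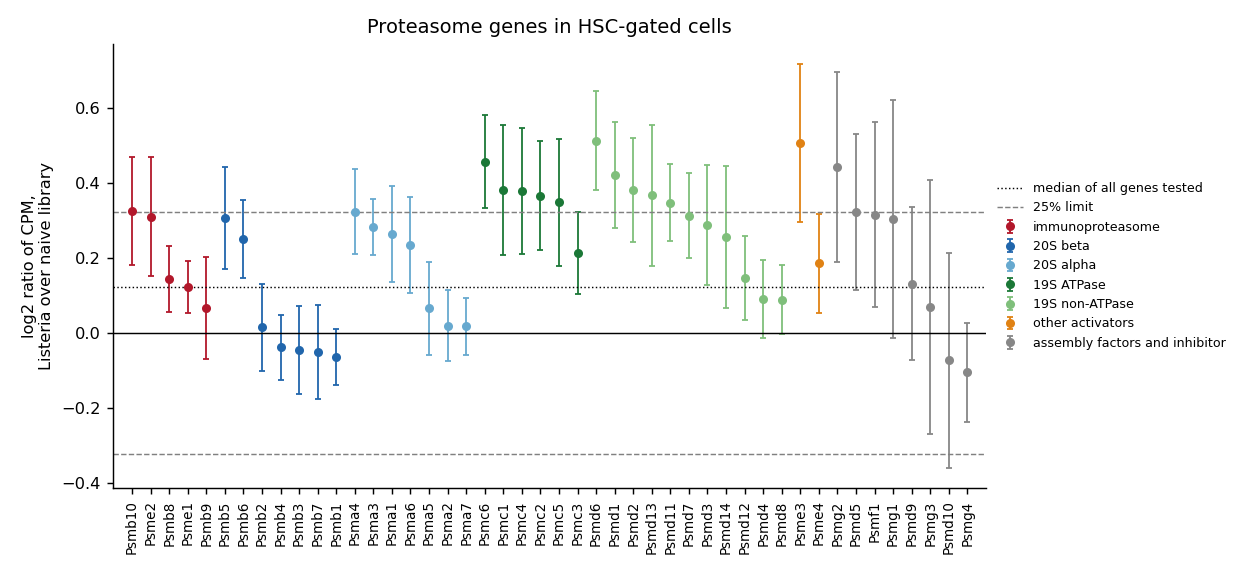
Log2 ratio of the Listeria over the naive library for each proteasome gene in HSC-gated cells, grouped by role, with exact 95% intervals, a dotted line at the median of all tested genes (0.12) and dashed lines at the 25% limit. Most ATPases lie at or beyond the upper dashed line, and the standard beta subunits mostly lie around 0.

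The immunoproteasome ratio of HSC-gated cells was not even across clusters. Within 9 clusters that held enough HSC-gated cells of both libraries, it was 0.34 (0.25 to 0.43) in cluster 5, led by Nkx2-3 and Gdf15, 0.41 (0.23 to 0.58) in cluster 6, led by Gm26802 and Iigp1, 0.34 in cluster 8 and 0.33 in cluster 10. In cluster 3 it was -0.36 (-0.52 to -0.20), at 362 CPM in the Listeria library and 465 CPM in the naive library. In cluster 7 it was 0.22 (0.05 to 0.39), and in clusters 4, 9 and 12 it lay between -0.03 and -0.01. The other proteasome genes had ratios of 0.037 to 0.20 in the 9 clusters, with the interval reaching below 0 in 4 of them. The 19S ATPases had 0.14 in cluster 4 to 0.45 in cluster 12, with the interval above 0 in 6 of 9.

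Cluster 3 was led by Rsad2 and Cxcl10, with Oasl1, Ifit1 and Isg15 among its 10 leading genes, all known interferon-induced genes. Its other leading genes were Gm13889, Lif, Tm4sf1, Cxcl2 and Ptgs2, so interferon genes were only part of what marked it. The immunoproteasome share of cluster 3 was below that of the HSC gate. Over all its cells the immunoproteasome share was 9.55% in the Listeria library and 13.2% in the naive library, and Psmb9 had 20.5 CPM in the Listeria library and 42.4 CPM in the naive library. Cluster 6, which was led by genes that include the interferon-induced GTPase Iigp1, had 21.9% and 19.2%, with Psmb9 at 144 and 116 CPM. Clusters 5 and 8 had 19.5% and 18.3% in the Listeria library, against 16.9% and 16.3% in the naive library. The share of the HSC gate as a whole, whose intervals overlapped between the libraries, thus covers clusters that were above and below the naive value. Removing the cluster held mostly by the Listeria library, with 297 Listeria and 8 naive HSC-gated cells, gave an immunoproteasome log2 ratio of 0.29 for the HSC gate in place of 0.16, and gating on cells thinned to 2500 UMIs gave 0.36.

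A ratio of cap to core transcripts does not depend on the scaling of the libraries. It was chosen after the values of the roles were seen. Over all kept cells there were 0.778 UMIs of 19S genes per UMI of 20S alpha and standard beta genes in the Listeria library and 0.702 in the naive library, a log2 difference of 0.15 (0.13 to 0.17, an approximate interval from the 4 counts). HSC-gated cells had 0.777 in the Listeria library and 0.681 in the naive library (0.19, 0.15 to 0.23). Megakaryocyte-lineage cells had 0.839 and 0.724 (0.21, 0.15 to 0.27). The ratio was higher in the Listeria library in 10 of 11 gates, with the interval above 0 in 4 of them. In T and NK cells it was lower, 0.633 in the Listeria library and 0.726 in the naive library (-0.20, -0.38 to -0.02). Within the 9 clusters of HSC-gated cells it was higher in 9, with the interval above 0 in 5.

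**Figure D5:**
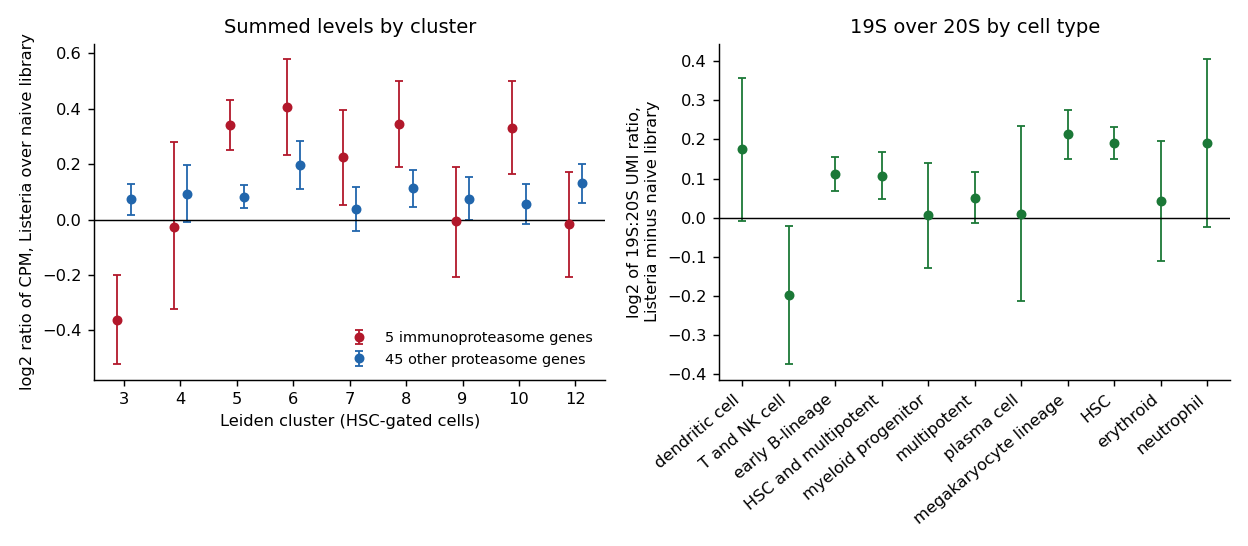
Left, log2 ratio of the Listeria over the naive library for the immunoproteasome genes and for the other proteasome genes within each cluster of HSC-gated cells; right, log2 difference of the 19S to 20S transcript ratio by gated cell type, Listeria minus naive; bars are 95% intervals. The immunoproteasome ratio runs from -0.36 in cluster 3 to 0.41 in cluster 6, and the 19S to 20S difference is above 0 in 10 of 11 gates.

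Other gates were compared between the libraries in the same way. Cells that passed the HSC and multipotent gates together had the most members called: 22 of 46 were higher in the Listeria library and none was lower, where 24% and 8.44% of all tested genes were, and among them 5 of 5 immunoproteasome genes. Their immunoproteasome sum was 872 CPM in the Listeria library and 664.5 CPM in the naive library (log2 ratio 0.39, 0.33 to 0.46), against 0.24 for the other genes. In this gate 58.4% of Listeria cells were in cluster 8, against 33.7% of naive cells. Multipotent cells had 10 of 45 members higher and none lower (18.8% and 11.8% of all genes), and none of the 10 was an immunoproteasome gene. The largest part of this gate lay in different clusters. In the Listeria library 28.4% of its cells were in cluster 2, the cluster held mostly by that library. In the naive library 33.1% of its cells were in cluster 18. Within cluster 18 the immunoproteasome share was 17.9% (16.1 to 19.7) in the Listeria library and 13.9% (13.1 to 14.7) in the naive library. Megakaryocyte-lineage cells had 9 of 47 higher and 1 lower (16.6% and 10.7% of all genes), of which 5 were ATPases, whose sum had a log2 ratio of 0.37 (0.28 to 0.46). Early B-lineage cells, the gate with most UMIs in the naive library only, had no member called in either direction among 47. Of all tested genes there, 7.54% were higher and 6.47% lower.

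The 6 small gates had fewer members deep enough to test. In dendritic cells 5 of 24 tested members were higher in the Listeria library and 1 was lower (19.9% and 12.9% of all genes). Psma1 had 195 CPM in the Listeria library and 117 CPM in the naive library (log2 ratio 0.74), and the lower gene was Psmg4, at 73.6 and 119 CPM (-0.69). The immunoproteasome genes, 5 of 5 tested and none called, had a summed ratio of -0.06 (-0.21 to 0.08), so the cell type with the highest level differed little between the libraries. In plasma cells 8 of 14 were higher and none was lower (27.5% and 13% of all genes), among them Psmb8 at 272 and 205 CPM (0.41), Psmb9 at 159.6 and 120.3 CPM (0.41) and Psme1 at 149 and 116 CPM (0.37). Their standard counterparts Psmb5 (0.55) and Psmb6 (0.51) were higher as well. Antibody transcripts take up much of the plasma cell totals, and these ratios between the libraries were not recomputed without them. In T and NK cells 3 of 28 were higher and 4 lower (12% and 20.7% of all genes), and Psmd11 stood at 77.7 CPM in the Listeria library and 119 CPM in the naive library (-0.62). Erythroid cells had 2 of 33 higher and 5 lower (14.3% and 14.5% of all genes), with Psma7 at 269 and 404 CPM (-0.59). Myeloid progenitors had 4 of 33 higher and 1 lower (21.7% and 10.1% of all genes); the lower gene was Psme2, at 96.6 and 134 CPM (-0.47). Neutrophils had 3 of 14 higher and none lower (29.1% and 12.1% of all genes). Most of these shares lay near the background, with plasma cells above it when antibody genes were kept in the totals.

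Dividing cells were set apart by at least 2 UMIs of a G2 and M phase gene list after thinning. The summed level of the other proteasome genes was above that of the remaining cells in 5 of 5 gates in both libraries, but past 25% only in early B-lineage cells of the Listeria library. In early B-lineage cells they had 5981 CPM in dividing cells against 4471 CPM in the remaining cells of the Listeria library (log2 ratio 0.42), and 5747 against 5031 CPM in the naive library (0.19). With at least 5 UMIs of the list these ratios were 0.084 and 0.074, so the Listeria value was no longer past 25%. With an S phase list in its place the ratios were 0.43 and 0.40, past 25% in both libraries. In HSC-gated cells the other proteasome genes had 4157 against 3772 CPM (0.14) and 3652 against 3371 CPM (0.12). The immunoproteasome genes were above the remaining cells in both libraries in 2 of 5 gates, multipotent and early B-lineage. In HSC-gated cells they had 645 against 686 CPM in the Listeria library (-0.09) and 634 against 603 CPM in the naive library (0.07). The Listeria value turned positive under other definitions of dividing cells, 0.30 with an S phase list, 0.15 at 5 or more UMIs and 0.0026 with Hmgb2 added to the list. Dividing B-lineage cells were deeper, with a median of 10098 UMIs against 4798.5 in the Listeria library, and the part of depth in these values was not tested.

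Genes that work with the proteasome were read from 4 further lists, beside 21.7% of all tested genes higher and 5.07% lower in HSC-gated cells. In HSC-gated cells, 1 of 9 tested assembly and accessory genes was higher in the Listeria library, Adrm1, a ubiquitin receptor of the cap, at 62.0 CPM in the Listeria library and 45.9 CPM in the naive library (log2 ratio 0.43). Of 9 regulators, Nfyc (25.2 and 16.7 CPM, 0.60), a subunit of the CCAAT-binding factor NF-Y, and Stat3 (204 and 153 CPM, 0.42) were higher. As shares, neither list was clearly above all genes. Among ubiquitin genes and shuttles, Nploc4 (0.42) and the ubiquitin-activating enzyme Uba1 (0.35) were higher. Among partners of the immunoproteasome in MHC class I presentation, Erap1 (0.40), which trims peptides, and Jak2 (0.34) were higher and Ifngr2 (-0.50) was lower.

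In dendritic cells the partners were split. Of 23, 12 were higher than in HSC-gated cells in the Listeria library and 15 in the naive library, where 30.6% and 34.5% of all tested genes were higher. In each library 6 partners were lower, where 44.4% and 37.3% of all tested genes were lower. Tap1, the peptide transporter, had 138 CPM in dendritic cells against 68.2 CPM in HSC-gated cells of the Listeria library, and 152 against 66.5 CPM in the naive library. Tapbp, which loads class I molecules, had log2 ratios of 1.66 and 1.69. The class I genes themselves were lower: B2m had 720.0 against 1275 CPM in the Listeria library and 741 against 1481 CPM in the naive library, and H2-K1 had -1.13 and -1.09. Irf8, a transcription factor of dendritic cells, had 1366 against 3.93 CPM and 1724 against 4.77 CPM. Pomp, the chaperone that completes the 20S core, was higher too, with 390.4 against 138 CPM and 350.0 against 137 CPM.

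Over the 22 points, the genes whose log2 level was most like the immunoproteasome sum, of 6062 compared, were Mvb12a (Pearson r 0.93), Arhgdia (0.87), Lgals1 (0.87), Cd48 (0.86) and Akr1a1 (0.85). Map4k1, Bloc1s2, Rtraf, Zmiz2 and Npc2 followed, at 0.83 to 0.81. For Irf8 r was 0.76, for Tap1 0.74 and for Tapbp 0.69, and for B2m it was 0.06. Among the 5 genes themselves, r was highest for Psmb8 with Psmb10, 0.89, and lowest for Psmb9 with Psme1, 0.48. These values describe 11 gates of 2 libraries and carry no test.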

How the data were processed

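The data are droplet single-cell RNA counts (10x 3′ v2 chemistry per the labels' protocols) of 1 Listeria and 1 naive library. The barcode lists hold 6794880 entries, more than that chemistry uses, so its version is uncertain. The authors deposited unfiltered matrices of UMI counts per gene and barcode, made with Cell Ranger 3.0.2 on mm10 per the submitters' processing notes. The libraries held 43895966 UMIs (Listeria) and 64619150 UMIs (naive), of which 89.4% and 78.6% lay in kept cells.

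Barcodes with at least 2500 UMIs, 500 genes and at most 10% mitochondrial UMIs were kept. This removed 17 Listeria and 9 naive barcodes for few genes and 54 and 216 for mitochondrial UMIs. No doublet caller was run; 21 Listeria and 55 naive cells with markers of more than 1 lineage were set aside. Gates counted distinct markers (6 of 18 for HSCs, 5 of 12 for multipotent cells); 346 Listeria and 330 naive cells stood at the HSC threshold and 312 and 299 were 1 marker below. Free RNA was estimated at 0.960% and 1.19% of UMIs in cells.

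Counts were summed per gate and library and scaled to 1000000 UMIs (CPM). Intervals are 95% exact Poisson for levels, exact binomial for ratios and Clopper-Pearson for shares. PCR duplicates are removed by UMIs, and no test was possible with 1 library per group. Called means a level more than 25% above the other side's, among genes that reached 10 CPM on 1 side and 100 UMIs over both, set beside the share of all genes so called. edgeR 4.0.16 and DESeq2 1.42.0 gave only scaling factors. Clusters (26, Leiden, scanpy 1.11.5) were built without proteasome genes. Scripts ran on Python 3.11.15 and R 4.3.3 and were tested on simulated data. Promoters came from RefSeq on GRCm38.p6, and 30934 of 31053 gene IDs were matched to GENCODE for overlaps.

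Named genes were the 5 immunoproteasome genes, Psmb5, Psmb6, Psmb7 and Psme3, the 4 highest and 4 lowest ratios per library comparison, the 3 widest-ranging members of each role, members under 10 CPM, and up to 5 genes of each other list; genes named beyond this rule were chosen after their values were seen. Members and lists were chosen with earlier results of these data known. Some genes of the lists are not reported here.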

Additional observations from a re-analysis of the deposited data

How the results depend on the processing

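No paired analysis was possible because the labels give no replicate numbers and each group is 1 library. Depth limits the small gates most: 32 to 90 cells stood behind each plasma, neutrophil, myeloid progenitor and erythroid value, and dendritic cells of the Listeria library numbered 34.

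Over all kept cells, the immunoproteasome log2 ratio of Listeria over naive, -0.06, was -0.11 at no more than 5% mitochondrial UMIs, -0.11 under TMM and DESeq2 scaling, -0.11 for Psmb8, Psmb9 and Psmb10 alone, -0.010 for Psme1 and Psme2 alone, and 0.065 without the cluster held mostly by the Listeria library. The other genes, at 0.06, had 0.037 at 5% mitochondrial UMIs, 0.082 without the 5% of cells with most UMIs, 0.0081 under TMM, 0.0091 under DESeq2, 0.091 with equal weight per cell and 0.067 without that cluster. The share difference, -1.02 points, was -1.25 at 5% mitochondrial UMIs and -0.024 without the cluster. The 2 members called became 4 at 5% mitochondrial UMIs, 0 under TMM, 1 under DESeq2 and 0 at 1.5-fold.

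In HSC-gated cells the immunoproteasome ratio, 0.16, was 0.060 under TMM, 0.041 under DESeq2, 0.36 with thinned gates, 0.21 with 1 more marker and 0.29 without the cluster. The other genes, at 0.17, had 0.076 under TMM, 0.058 under DESeq2, 0.13 with totals free of mitochondrial and ribosomal protein genes, 0.12 with thinned gates, 0.10 with Leiden clusters as gates and 0.15 without the cluster. The 15 members called were 5 under TMM, 4 under DESeq2 and 0 at 1.5-fold, where 12.8%, 11.6% and 5.12% of all tested genes were higher, in place of 21.7%.

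With antibody genes kept in the totals, the plasma cell immunoproteasome ratio over HSC-gated cells reversed for Psme1 and Psme2 alone. It was then -0.46 (Listeria) and -0.63 (naive). Without haemoglobin and granule genes in the totals, the other genes in naive neutrophils reversed to 0.053, and without antibody genes those in plasma cells reversed to 0.48 (Listeria) and 0.34 (naive); both settings raise every gene of these cells alike. The dividing-cell count of 2 gates for the immunoproteasome genes became 6 with an S phase list and 1 at 5 or more UMIs, and that of 5 gates for the other genes became 3 at 5 or more UMIs, where only 3 gates had enough cells. Except for these scalings, the cause of each change was not tested.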
